A study of Mus musculus with 2 samples.

Results

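The genes described here encode the proteins of the cytosolic ribosome, 4 translation elongation factor subunits of the eEF1 complex, the elongation factor Eef2, and the TOP genes Pabpc1 and Tpt1. They were chosen by name: gene names on the array that start with Rpl or Rps and a digit, Rplp0, Rplp1, Rplp2 and Rpsa, without S6 kinase, mitochondrial and predicted names, plus Eef1a1, Eef1b2, Eef1d, Eef1g, Eef2, Pabpc1 and Tpt1. The rule found 93 names, carried by 189 probes, of 31709 names on the array. They were 46 large subunit genes, 30 small subunit genes, the 7 elongation and other TOP genes, 9 paralogs of ribosomal protein genes, and Rps19bp1, which shares only the name and encodes a binding partner of a ribosomal protein. Of these, 91 were measured, meaning that the probe was well above background on both arrays in the RNA of at least 1 genotype, as were 14874 names of the whole array. The 2 that were not were Rpl3l, a paralog of striated muscle, and Rpl10l, a paralog of the testis.

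The study compared Lamtor1-deficient (KO) with wild-type (WT) CD4+ T cells of C57BL/6J mice. Naive CD4+CD62L+ cells, sorted magnetically from spleen, were kept for 5 days on plate-bound antibody to CD3 with antibody to CD28, IL-2 (50 ng/ml) and human TGFβ (1 ng/ml), in both genotypes. The RNA of 1 KO and 1 WT extract was hybridised together on 2 Agilent arrays of 2 colours, with KO in Cy5 on the first and in Cy3 on the second. Both arrays carry the same biological replicate number, so they were counted as 1 replicate and no test was possible. Each ± given with a ratio is the SD between the arrays, a technical error. The deleted part of Lamtor1, any Cre driver, the number of mice and whether cells were pooled are not given in the sources used here; nor do the protocols settle whether the RNA came from the naive or the cultured cells.

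Ribosomal protein mRNAs begin, in most cases, with a cytosine followed by a run of pyrimidines, the terminal oligopyrimidine (TOP) tract. The kinase complex mTORC1, which Lamtor1 helps to hold on the lysosome as a subunit of Ragulator, acts on these mRNAs through 4E-BP, a repressor that binds the cap-binding protein eIF4E, and Larp1, which binds the TOP tract. That control is known mainly at the step of translation, which arrays of total RNA do not measure, while Larp1 also affects the stability of TOP mRNAs.

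To show what a TOP tract looks like, the annotated starts of 4 ribosomal protein genes follow, together with those of the genes whose ratios stood furthest from 0 or that form a pair with one of them. Each line holds 30 bases of the RefSeq sequence of build GRCm38.p6, 5′ to 3′ on the strand of the gene, 10 before the annotated start and 20 from it on. Capitals mark a C followed by at least 4 of C or T that starts within 5 bases of the annotated start. The genes lie at chr3:90213629-90213658 (Rps27, minus strand), chr17:33955646-33955675 (Rps18, minus), chr7:118116128-118116157 (Rps15a, minus), chr7:4792955-4792984 (Rpl28, plus), chr17:24720053-24720082 (Rps2, plus), chr9:66946076-66946105 (Rps27l, plus), chr3:28805498-28805527 (Rpl22l1, plus), chr4:152325716-152325745 (Rpl22, plus), chrX:37085203-37085232 (Rpl39, minus), chr16:10170218-10170247 (Rpl39l, plus) and chr14:75845246-75845275 (Tpt1, plus).
Rps27: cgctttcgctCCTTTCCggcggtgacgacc
Rps18: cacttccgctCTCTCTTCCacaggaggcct
Rps15a: tttctgccatCTTCCCTCgccggtgagtga
Rpl28: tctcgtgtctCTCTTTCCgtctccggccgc
Rps2: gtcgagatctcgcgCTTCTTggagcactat
Rps27l: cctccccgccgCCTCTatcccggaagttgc
Rpl22l1: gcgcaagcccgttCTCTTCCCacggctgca
Rpl22: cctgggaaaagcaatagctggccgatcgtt
Rpl39: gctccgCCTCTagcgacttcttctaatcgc
Rpl39l: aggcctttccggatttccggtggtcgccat
Tpt1: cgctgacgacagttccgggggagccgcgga

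In Rps27, Rps18, Rps15a and Rpl28 the run begins on the annotated start itself. In Rps2, Rps27l, Rpl22l1 and Rpl39 it begins within 5 bases of it, and in the windows of Rpl22, Rpl39l and Tpt1 no such run was found, which says only that these letters are not there. Of the 93 members, 68 had a RefSeq promoter sequence. A run that began on the annotated start of at least 1 transcript was present in 13 of them (19.1%), against 3.01% of 27025 genes with a promoter. A run within 5 bases was present in 29 (42.6%), against 21.2% of those genes. The search was on the strand of the gene only, and the starts are those of the annotation, not measured ones.

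Of the whole series, 4 facts bear on these genes. Lamtor1 itself was lower in KO on both arrays, with a log2 ratio of −1.95 ± 0.03 (3.86-fold). No spot was saturated, and between 43.7% and 51.7% of the spots were well above background in each channel. All 8 T cell markers were measured, with a median of −0.64. Cd4 (−1.18) and Cd5 (−1.12) were at least 2-fold lower in KO, and Cd2 (−0.89) and Cd3d (−0.79) at least 1.5-fold lower. Cd3g (−0.49) was below 0 on both arrays, Lck (0.16) and Cd3e (0.09) were above 0 on both, and Cd28 was at 0.04. Of 7 markers of CD8 T and NK cells, 5 were measured and 3 were at least 2-fold higher. Those were Klrd1 at 1.78, and Tyrobp and Klrb1c by at least 4.30-fold and 2.18-fold, both not well above background in WT. Cd8a (0.67) was at least 1.5-fold higher, while Cd8b1 was below 0 on both arrays, at −0.55. Both measured B cell and all 3 measured myeloid markers were above 0 on both arrays, none with a ratio of 2-fold. Itgam (0.70) was at least 1.5-fold higher. Lyz2 (0.62) was not well above background in WT, so its fold is a bound, at least 1.39-fold. Both erythroid markers were below background. The part of such cells in the ratios below was not tested.

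After loess normalization the mRNAs of the ribosome were nearly level between KO and WT. Across the 91 measured genes the median log2 ratio of KO over WT was 0.0022, against −0.02 for all 14874 measured genes. It was −0.01 for the 46 large subunit genes, 0.07 for the 30 small subunit genes and 0.02 for the 7 elongation and other TOP genes. It was −0.43 for the 7 measured paralogs. A mean ratio between −0.5 and 0.5 was found for 80 of the 91 (87.9%), against 68.8% of all measured genes, and the interquartile range of the ratios was 0.34 against 0.62. In RNA from a bulk sample of cells, fewer cells of a type and less RNA per cell cannot be told apart.

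A gene was called where both arrays put it at 2-fold or more in 1 direction. By that rule 1 member was higher in KO (Rps2) and 1 was lower (Rpl39l). Over all measured genes it called 2.46% higher and 6.88% lower. At 1.5-fold, 1 member was higher, again Rps2, and 3 were lower, all of them paralogs (Rpl39l, Rps27l and Rpl22l1), against 6.78% higher and 13.5% lower over all measured genes. None of the 46 large subunit genes and none of the 7 elongation and other TOP genes passed either size, and with 1 extract per genotype there is no p-value to set beside that.

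**Figure D1:**
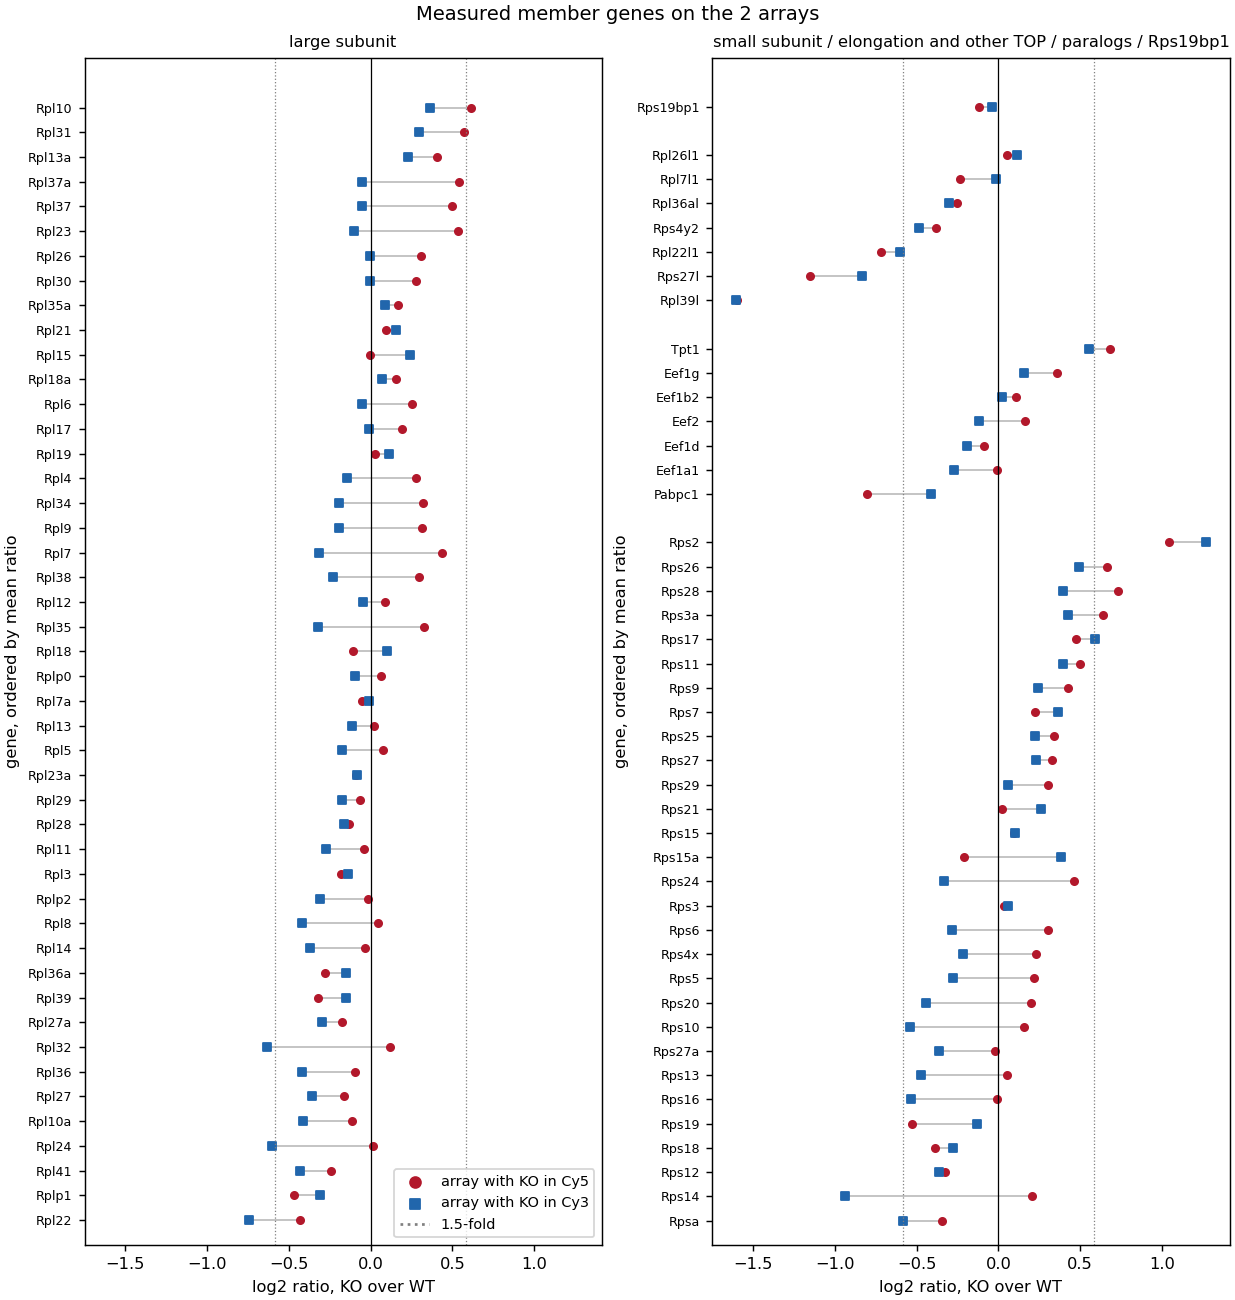
Log2 ratio of KO over WT (horizontal axis) for the measured genes, 1 left out, ordered by mean ratio within each class; the circle is the array with KO in Cy5, the square the array with KO in Cy3, and dotted lines mark 1.5-fold. Most genes lie between the dotted lines on both arrays, Rps2 lies right of them and Rpl39l, Rps27l and Rpl22l1 lie left of them.

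The arrays did not place the members alike. The median ratio was 0.08 on the array with KO in Cy5 and −0.15 on the other. In 33 of the 91 genes (36.3%) the ratio was above 0 on one array and below 0 on the other, against 17.0% of all measured genes, and in 30 of these 33 the array with KO in Cy5 was the one above 0. For example, Rps14, a small subunit protein whose loss marks a form of myelodysplastic syndrome, read 0.20 with KO in Cy5 and −0.94 on the swapped array. Rps6, the substrate from which the S6 kinases take their name, read 0.30 and −0.28. For genes of this kind the difference between the dye orientations exceeded the difference between genotypes, and the sign of the mean is not resolved.

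The members were among the brightest probes of the array. Of the 91, 86 lay in the brightest 10% of measured genes by mean log2 intensity, of which they made up 5.78%, and only 5 lay lower: Rpl21, Rpl39l, Rpl7l1, Rps4y2 and Rps19bp1. Within this brightest 10%, 1.16% of the members passed 1.5-fold upward and 2.33% downward, while of the 1402 other genes there 5.14% were higher and 16.9% lower. The medians of these groups lay together, at 0.0084 for the 86 members and 0.0088 for the others, and the interquartile ranges at 0.34 and 0.65. Within this 10% the members were the brighter, with a median log2 intensity of 15.75 against 13.52, so the groups are not matched in brightness.

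That median depends on how the dyes are balanced. Loess normalization centres the ratio at each brightness, so it would also remove a shift shared by most bright genes. When each array was centred on its overall median instead, all measured genes had a median of −0.37 and the members of −0.65, with 0.45 on the array with KO in Cy5 and −1.84 on the other. The other genes of the brightest 10% then had a median of −0.64, so that members and bright other genes differed by −0.03. With such centring the means of these genes, all above 0 after loess, lay below 0: Rps26 (−0.10), Rps28 (−0.13), Rps3a (−0.14), Rpl10 (−0.20), Rpl31 (−0.24), Rpl13a (−0.35), Rpl37a (−0.45), Rpl17 (−0.58), Eef1g (−0.36), Eef1b2 (−0.59), Eef2 (−0.63), Tpt1 (−0.08) and Rpl26l1 (−0.55). Leaving the members out of the loess curve gave 0.02 for their median, and the scanner software's own ratios gave −0.03.

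**Figure D2:**
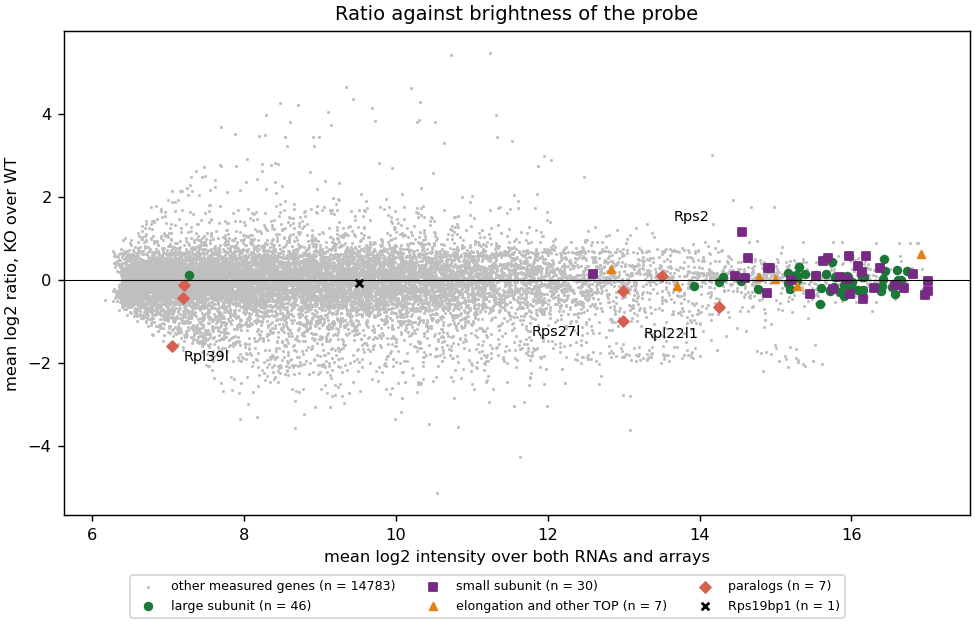
Mean log2 ratio of KO over WT (vertical axis) against the mean log2 intensity over both RNAs and arrays (horizontal axis) for 14783 other measured genes (grey) and the 91 members (coloured by class). The members crowd at the bright end around a ratio of 0, with Rps2 above and the paralogs Rpl39l, Rps27l and Rpl22l1 below the rest.

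Among the small subunit genes Rps2 stood apart, by the brighter of its 2 probes. Rps2 encodes a protein at the entry of the mRNA channel. With KO in Cy5 its log2 intensity was 15.06 in KO and 14.02 in WT, and with KO in Cy3 it was 15.22 in KO and 13.95 in WT. KO was the higher RNA on both arrays, and the log2 ratios of 1.04 and 1.27 gave a mean of 1.15 ± 0.16 (2.23-fold).

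A second Rps2 probe did not show this size. It read 0.21 with KO in Cy5 and 0.27 on the second array, a mean of 0.24 ± 0.05, so both probes lay above 0 on both arrays but only the brighter passed 1.5-fold. The array file places the brighter probe at chr17:42864841-42864900 and the other at chr17:24857583-24857642 of build mm9, about 18 Mb apart on 1 chromosome. The annotated start of Rps2 given above, at chr17:24720053-24720082 of GRCm38.p6, is near the other probe and not the brighter one. The builds differ, so no exact distance is given. Both sequences are shown because the only member called higher rests on one of them.
Rps2, brighter probe: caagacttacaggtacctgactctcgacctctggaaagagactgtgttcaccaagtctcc
Rps2, other probe: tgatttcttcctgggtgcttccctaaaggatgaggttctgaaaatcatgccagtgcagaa

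Whether the brighter probe reads Rps2 mRNA alone was not tested. With the other probe in its place, a choice made after seeing the data, 0 members were at least 1.5-fold higher in KO. With the arrays centred on their medians in place of loess, the brighter probe had a mean of 0.50 and passed neither size.

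The next highest small subunit genes lay close to the 1.5-fold line. Rps26 and Rps28 encode proteins near the exit of the mRNA channel. Rps26 read 0.66 with KO in Cy5 and 0.49 with the dyes exchanged (mean 0.58 ± 0.12), and Rps28 read 0.73 and 0.39 (0.56 ± 0.24). Rps3a, a protein of the small subunit platform, read 0.64 and 0.42 (0.53 ± 0.15). All 3 were above 0 on both arrays, and each passed 1.5-fold only with KO in Cy5.

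At the low end, Rpsa, also known as the laminin receptor precursor, read −0.34 with KO in Cy5 and −0.58 on the swapped array, a mean of −0.46 ± 0.17. Rps14 had a mean of −0.37 ± 0.81, the widest spread of any member, for the opposite signs given above. Rps12 read −0.32 and −0.37 (mean −0.35 ± 0.03), and Rps18, a protein of the small subunit head, read −0.39 and −0.28 (−0.33 ± 0.08). Of the 30 small subunit genes, 14 were above 0 on both arrays, 6 were below 0 on both and 10 had opposite signs. The same counts over all 14874 measured genes were 5747, 6595 and 2532.

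The large subunit genes spread less, from −0.59 to 0.49. Rpl10, a protein that joins the large subunit late in its maturation in the cytoplasm, was highest, at 0.61 with KO in Cy5 and 0.36 on the second array (mean 0.49 ± 0.18). Rpl31 read 0.57 and 0.30 (0.44 ± 0.19). Rpl13a, also known from the GAIT complex that represses translation of some inflammatory mRNAs, read 0.40 and 0.23 (0.32 ± 0.12). The 3 lay above 0 on both arrays, whereas the next, Rpl37a, read 0.54 and −0.06, so its mean of 0.24 ± 0.42 has no settled sign.

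Rpl22, whose loss in mice arrests the development of αβ T cells, was the lowest large subunit gene. Its log2 intensity was 15.39 in KO and 15.82 in WT on the array with KO in Cy5, and 15.19 in KO and 15.94 in WT on the other. KO was lower on both arrays, with ratios of −0.43 and −0.74 and a mean of −0.59 ± 0.22, but its other probe had a mean of −0.07 ± 0.06. Rplp1, a protein of the acidic stalk that recruits elongation factors, read −0.47 and −0.31 (mean −0.39 ± 0.11). Rpl41, a very short basic protein, read −0.24 and −0.43 (−0.34 ± 0.13), and Rpl24 read 0.01 and −0.60 (−0.29 ± 0.43). Of the 46 large subunit genes, 7 were above 0 on both arrays, 17 were below 0 on both and 22 had opposite signs. Over all 14874 measured genes these counts were 5747, 6595 and 2532.

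By the brightest probe of each gene, the elongation factors were near 0. Eef1a1, which brings aminoacyl-tRNA to the ribosome, read −0.01 with KO in Cy5 and −0.27 with the dyes exchanged (mean −0.14 ± 0.19), and its exchange factor subunits Eef1d, Eef1b2 and Eef1g had means of −0.14 ± 0.07, 0.07 ± 0.06 and 0.26 ± 0.14. Eef2, the translocase, read 0.16 and −0.12 (0.02 ± 0.20). Among these 5, by those probes, opposite signs on the arrays occurred in Eef2 alone. The other Eef1g probe was above 0 on both arrays, with a mean of 0.45 ± 0.01.

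Tpt1 and Pabpc1 lay furthest apart in this class. Tpt1 encodes the translationally controlled tumour protein. Its log2 intensity was 17.25 in KO and 16.56 in WT with KO in Cy5, and 17.31 and 16.75 with KO in Cy3, which gave 0.68 and 0.55 and a mean of 0.62 ± 0.09 (1.54-fold). KO was higher on both arrays, by less than 1.5-fold on the second, and the 3 Tpt1 probes had means from 0.58 to 0.65, but with median centring the mean of Tpt1 was −0.08. Pabpc1, the cytoplasmic poly(A)-binding protein, had a log2 intensity of 13.87 in KO and 14.67 in WT on the first array and 14.04 and 14.45 on the second. It was lower in KO on both arrays, at −0.80 and −0.41 (mean −0.61 ± 0.28), and passed 1.5-fold only with KO in Cy5.

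The paralogs were the class with the lowest ratios. Of the 7 measured, 6 were below 0 on both arrays and 1, Rpl26l1, was above 0 on both. Among all 14874 measured genes, 6595 were below 0 on both arrays and 5747 above 0 on both. Rpl39l, the paralog of Rpl39 that is known best from the testis, had a log2 intensity of 6.06 in KO and 7.65 in WT on the array with KO in Cy5, and of 6.44 and 8.04 on the other. It was well above background in WT on both arrays and on neither in KO, so the ratios of −1.60 and −1.60 are a bound, at least 3.03-fold lower in KO. These are dim values, at chr16:10174657-10174716 of mm9. Rpl39 itself, a bright probe, read −0.32 and −0.15 (mean −0.23 ± 0.12).

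Rps27l, a paralog of Rps27 that is a known target of p53, was lower in KO at a well measured level. Its log2 intensity was 12.38 in KO and 13.53 in WT with KO in Cy5, and 12.60 and 13.44 with KO in Cy3. KO was lower on both arrays, and the ratios of −1.15 and −0.83 gave a mean of −0.99 ± 0.22 (1.99-fold lower), from a probe at chr9:66795486-66797176 of mm9. After loess Rps27 lay on the other side of 0, at 0.33 and 0.23 (mean 0.28 ± 0.07). The paralog thus stood 1.48 and 1.07 log2 units below its partner on these arrays. The ratio of Rps27 with median centring, where the median of the members was −0.65, is not given.

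Rpl22l1, the paralog of Rpl22, had a log2 intensity of 13.95 in KO and 14.67 in WT with KO in Cy5, and of 13.90 and 14.50 with KO in Cy3. It was lower in KO on both arrays, with ratios of −0.72 and −0.60 and a mean of −0.66 ± 0.08 (1.58-fold), from a probe at chr3:28706237-28706296 of mm9. The difference of Rpl22l1 from the brighter Rpl22 probe was −0.29 on one array and 0.14 on the other, without a settled sign. The other Rpl22 probe read −0.11 and −0.02, and Rpl22l1 lay below it on both arrays. The call on Rpl22l1 ended with a normexp offset of 1, at a mean of −0.62, and with median centring, at −1.30, since 1 array then fell short of 1.5-fold.

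The other paralogs did not pass 1.5-fold. The gene named Rps4y2 in the files had a mean of −0.43 ± 0.07, Rpl36al of −0.28 ± 0.03, Rpl7l1 of −0.12 ± 0.16 and Rpl26l1 of 0.08 ± 0.05. Rps19bp1, which is no ribosomal protein, had a mean of −0.08 ± 0.06. Without the paralogs and Rps19bp1, a choice made after seeing the data, 0 of the 83 remaining members were at least 1.5-fold lower.

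**Figure D3:**
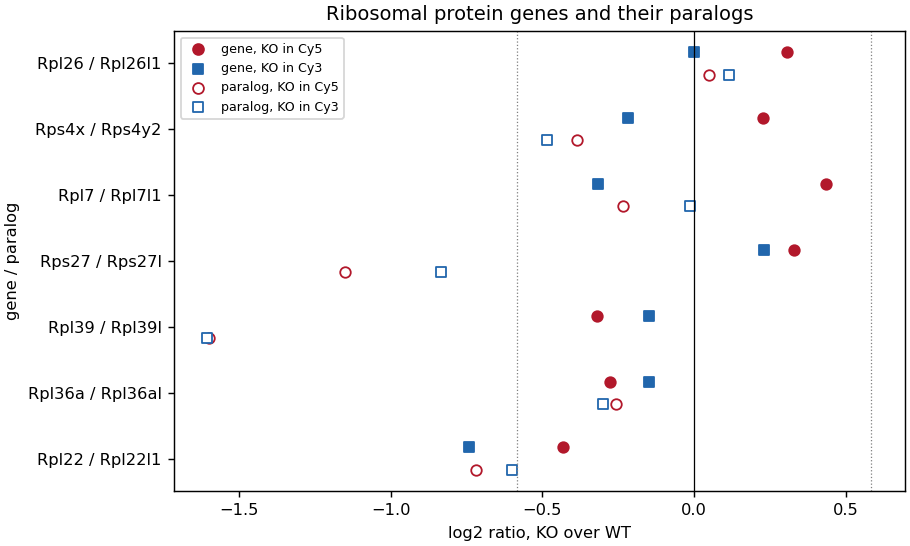
Log2 ratio of KO over WT (horizontal axis) for 7 ribosomal protein genes (filled) and their paralogs (open), with the array of KO in Cy5 as circles, that of KO in Cy3 as squares, and dotted lines at 1.5-fold. Rpl39l and Rps27l lie well left of their partners on both arrays, while Rpl22l1 lies near the brighter Rpl22 probe.

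Probes of the same gene mostly gave like ratios. In 56 members more than 1 probe was measured, and the range of the mean ratio over the probes of a gene had a median of 0.113. It was under 0.25 in 41 of the 56 and over 0.5 in 6: Rps24, Rps2, Rps13, Rpl17, Rpl13a and Rpl22. A dim Rps24 probe had a mean of 1.25 ± 0.02 while the brightest, which stands for the gene, had 0.06 ± 0.56, and an Rps13 probe read −0.90 and −1.10 on the arrays beside a mean of −0.21 ± 0.37 for the brightest.

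In Rpl13a and Rpl17, probes of the same gene lay on opposite sides of 0 on both arrays, by at least 0.5. The Rpl13a probes, both placed on chromosome 7, had means of 0.32 ± 0.12 and −0.37 ± 0.19. Of the 7 Rpl17 probes, 6 had means between 0.0068 and 0.18 and the dimmest had −0.53 ± 0.18. For these genes the direction rests on which probe is read.

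Ribosomal protein genes have many processed copies in the genome, and the file lists predicted transcripts as further matches for 62 of the probes that stand for a member. Among the large and small subunit genes, the 57 with such a listing had a median of 0.0022 and the 19 without one 0.06, with 1 and 0 genes at least 1.5-fold higher. A further 84 probes with a name of this kind lay outside the rule, as predicted or pseudogene names. How much RNA of such copies each probe reads was not tested.

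**Figure D4:**
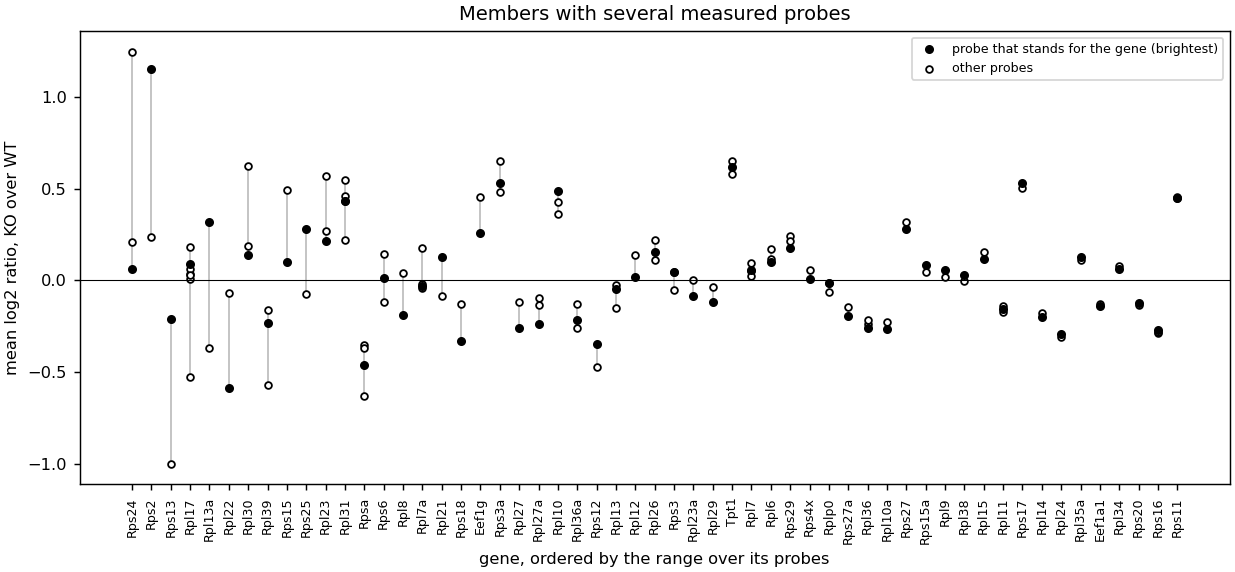
Mean log2 ratio of KO over WT (vertical axis) of each measured probe for members with more than 1 measured probe, 1 gene left out, ordered by the range over the probes; the filled point is the brightest probe, which stands for the gene, and open points are the others. The probes of most genes lie within 0.25 of each other, and they lie furthest apart in Rps24 and Rps2.

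Members with and without a pyrimidine run at the annotated start had medians close to each other. Most ribosomal protein mRNAs begin with a TOP tract, yet only 13 of 68 members had a run on the annotated start. The members without a run can thus include TOP mRNAs, and the split cannot say whether the ratios go with a TOP tract. The 13 members with a run on the start (Rpl14, Rpl15, Rpl28, Rpl35, Rpl35a, Rpl38, Rplp2, Rps6, Rps10, Rps15a, Rps18, Rps21 and Rps27) had a median of 0.01 and lay between −0.33 and 0.28. The 53 measured members with a promoter sequence but no such run had a median of 0.0056, and lay between −1.60 and 1.15. With the wider window the medians were 0.02 for the 29 with a run and −0.02 for the 37 without. Rps2, Rps27l and Rpl22l1, all past 1.5-fold, were in the first of these groups and Rpl39l in the second.

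TOP genes that are not ribosomal proteins spread more widely. Of 26 listed, 24 were measured, with a median of −0.20. At 2-fold, 0 were higher and 4 lower, against 2.46% higher and 6.88% lower over all measured genes. The 4 were Snhg1 (−2.07 ± 0.20), Snhg12 (−1.93 ± 0.03) and Snhg6 (−1.92 ± 0.0024), which are host genes of small nucleolar RNAs, and Hnrnpa1 (−1.27 ± 0.10), a splicing factor. The other Hnrnpa1 probe read −0.66, and the median over its probes, −0.97, was short of 2-fold. Eif4b, a helper of the helicase eIF4A, was highest at 0.55 ± 0.17 (−0.04 with median centring). The list did not move as one: the host gene Snhg3 was at −0.04 ± 0.08. Gas5, another host gene, had −0.73 ± 0.26 by its brightest probe but 0.64 and 0.80 by its other 2 probes.

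In a list of regulators of TOP mRNAs or of translation in general, 17 of 17 genes were measured. At 2-fold, 0 were higher and 1 was lower, against 2.46% and 6.88% over all measured genes. That one was Eif4ebp1, the translational repressor 4E-BP1, whose log2 intensity was 9.60 in KO and 11.92 in WT with KO in Cy5 and 9.52 and 11.85 with KO in Cy3. KO was lower on both arrays, with a mean of −2.33 ± 0.0050. Larp1, which binds the cap and the TOP tract, had −0.59 ± 0.04. Of the other Larp genes listed, Larp1b (−0.91 ± 0.03) was at least 1.5-fold lower, Larp4b had −0.54 ± 0.02 and Larp4 0.01 ± 0.02. Pdcd4, an inhibitor of eIF4A, was highest at 0.58 ± 0.03 (−0.04 with median centring). The median of the list was −0.0063.

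At 2-fold, initiation factors gave 0 higher and 1 lower of 30 measured, the beta subunit of eIF2, Eif2s2 (−1.59 ± 0.07, and −0.77 by its dimmer probe). At 1.5-fold, 0 were higher and 2 lower, Eif2s2 and Eif1 (−1.02 ± 0.18). The median of the list was −0.05. Eif4g3, a scaffold of the cap complex, was highest at 0.34 ± 0.03 (−0.20 with median centring). Of 14 other elongation and termination genes, 0 passed 2-fold or 1.5-fold, and they lay between −0.56 (Gspt1, a release factor) and 0.40 (Dph2, which helps to make the diphthamide of Eef2; −0.01 with median centring). The genes of the mitochondrial ribosome had a median of −0.16 over 80 measured genes. None of them passed 2-fold. At 1.5-fold, 1 was higher, Mrpl41 (0.66 ± 0.08), and 4 were lower, with Mrpl33 (−0.96 ± 0.12) lowest. Over all measured genes the shares were 6.78% higher and 13.5% lower at 1.5-fold, and 2.46% and 6.88% at 2-fold. The difference between these lists and the ribosomal proteins was not tested, since 1 extract of each genotype allows none.

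**Figure D5:**
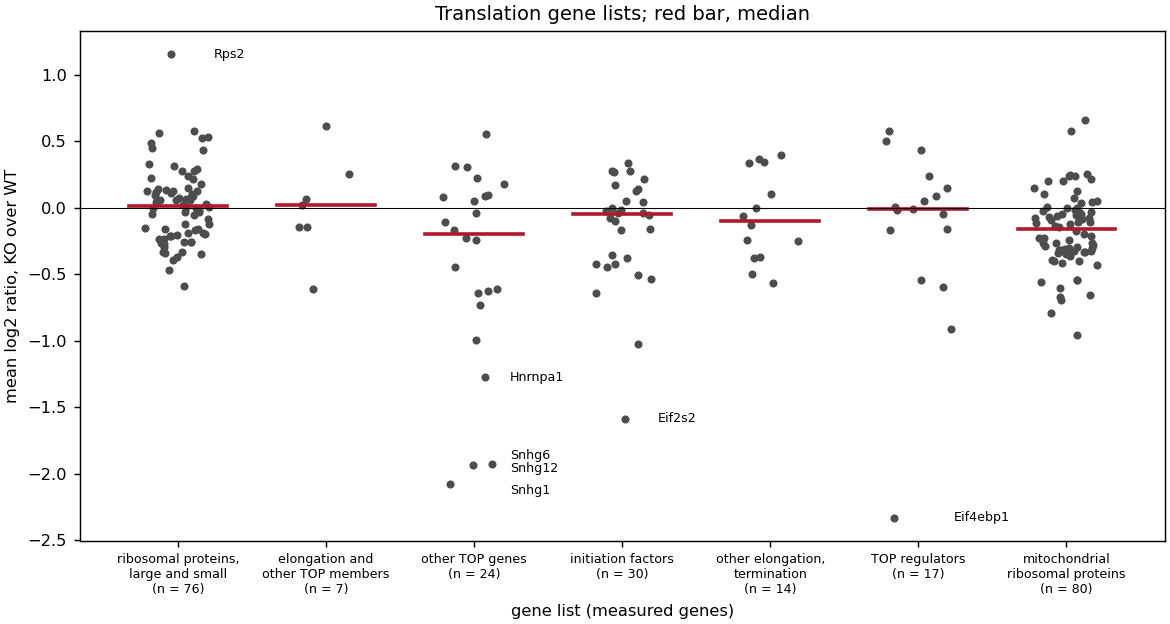
Mean log2 ratio of KO over WT (vertical axis) of each measured gene in 7 lists of translation genes, with the median as a bar and the genes past 2-fold named. The 76 large and small subunit genes lie close to 0 apart from Rps2, while the other TOP genes hold 4 of the 6 named genes on the low side.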

How the data were processed

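KO and WT RNA of CD4+ T cells were compared on 2 dye-swapped arrays. Feature Extraction 10.7.3.1 read the arrays, per the file headers, whereas the version in the submitters' processing notes is 10.5.1.1. The authors deposited, for each spot, its mean intensity and that of its local background (median), uncorrected. Their deposited series matrix gives Cy5 over Cy3 on the log10 scale, equal to the software's own log ratio at all 44397 spots of each array; it was used as an alternative. Each array had 39429 probes and 1377 control spots.

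Background was corrected by normexp with an offset of 50, and each array was then normalized by loess (limma 3.58.1, R 4.3.3), with control spots at weight 0. Spots marked as outliers (206 and 214) were left out, spots of a probe were averaged, and the deposited log10 scale was not kept: all ratios here are log2 of KO over WT. The brightest probe stands for a gene. Names came from accessions or symbols matched to RefSeq genes of GRCm38.p6 (9249 of 39429 probes kept the file's name). Probe positions are in mm9, as in the files. Normalization was tested on simulated ratios. The simulation held no genotype shift shared by bright genes, so it cannot say whether loess removed one here.

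With 1 RNA extract per genotype no p-value is given. The number of arrays limits the precision, and intensity cannot be compared between probes. Where a probe was not well above background in 1 RNA on both arrays, the fold is a bound: the other RNA's mean over the probe's own signal or, if higher, the lowest signal well above background.

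Members and lists were chosen with earlier results of these data known. Genes were named as follows: all past 1.5-fold, the 4 highest and 4 lowest of each subunit, all paralogs and elongation or other TOP members, genes whose probes disagreed by at least 0.5, and, of other lists, those past 2-fold and the extremes. Rps6, Snhg3, Gas5, Eif1, Larp1, Larp1b, Larp4, Larp4b and the markers were named outside that rule, after their values were seen. So were the members outside the brightest 10%, Rps13, Rps24 and those with a pyrimidine run. For 1 member no values of its own are reported here; it is counted in the totals.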

Additional observations from a re-analysis of the deposited data

How the results depend on the processing

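There were 11 alternatives from the start and 2 chosen after seeing the data. Centring each array on its median in place of loess left 0 members at least 2-fold higher, 0 at least 1.5-fold higher and, as before, 1 at least 2-fold lower, and moved the medians to −0.65 (all members), −0.69 (large subunit), −0.60 (small subunit) and −0.63 (elongation and other TOP), with all measured genes at −0.37; members at least 1.5-fold lower were then Rpl39l and Rps27l. With probes required to be above background in both RNAs, 0 members were at least 2-fold lower, since Rpl39l was not tested. The median over the probes of a gene gave 0 at least 2-fold higher. With the other Rps2 probe, 0 were at least 2-fold and 0 at least 1.5-fold higher; without paralogs and Rps19bp1, 0 were at least 2-fold and 0 at least 1.5-fold lower (both chosen after seeing the data). On single arrays, members at least 2-fold lower numbered 1 to 2, at least 1.5-fold higher 2 to 6 and at least 1.5-fold lower 4 to 7.

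For all measured genes the counts at 2-fold, 366 higher and 1024 lower, became 867 and 1614 with the scanner software's ratios, 609 and 1398 with an offset of 1, and 111 and 881 with median centring. Rpl39l, a dim probe, moved from −1.60 to −4.43 with the software's ratios and −3.01 with an offset of 1. The mean ratios of Rps2, Rpl39l, Rps27l and Rpl22l1 kept their direction under every alternative that measured these genes. With median centring, however, the median of the members was 0.45 with KO in Cy5 and −1.84 on the other array. The sign of Rps2 on each array is not given for that setting. Of the 44 named genes with alternatives, 17 had means above 0 that turned below 0 with median centring. No paired analysis was possible because both arrays hold the same 2 extracts, labelled as 1 replicate, so no groups share replicate numbers. With 1 extract per genotype, variation between mice or cultures was not measured.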
